A study of Mus musculus with 4 samples.

Results

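The genes described here are 9 genes of the T helper 17 (Th17) axis: the cytokine genes Il17a, Il17f, Il22, Csf2 and Il21, the nuclear receptor gene Rora, the chemokine receptor gene Ccr6 with its ligand gene Ccl20, and the receptor gene Il17ra. They were chosen by name, and all 9 were found by symbol among the 48526 gene identifiers of the table. Messenger RNA had been sequenced from lamina propria mononuclear cells, the cells isolated from the connective tissue under the gut epithelium, of mice given CD4 T cells. Wild-type cells were transferred in 2 samples, for which the labels speak of pronounced colitis. The cells transferred in the other 2 lacked both Hobit and Blimp-1 (double knockout, DKO), related repressors that drive tissue residency of lymphocytes, and mild colitis is labelled there. Genotype and severity of colitis therefore go together and cannot be told apart. The labels give the knockout for the transferred cells. The sources used here do not give the strain, age and genotype of the recipients, the time after transfer or the alleles behind the knockout.

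Th17 cells are CD4 T cells that guard mucosal surfaces. Their differentiation is driven by IL-6, TGF-beta, IL-1 and IL-23 and, among other factors, by the nuclear receptor RORα (gene Rora). IL-17A and IL-17F act through a receptor of Il17ra and Il17rc chains on stromal, epithelial and myeloid cells and induce neutrophil chemokines, while IL-22 acts on the epithelium. Innate lymphoid cells and gamma delta T cells make several of the same cytokines, and in a mixed preparation the source cell is not known.

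The values are regularized log2 expression (rlog), a log2 scale on which genes with few reads are pulled towards their mean. Sequencing depth per sample is unknown. Tested were the 13528 genes whose rlog averaged 4 or more, and their median was 8.33 to 8.35 in the 4 samples. T cell genes were at high levels in each sample, such as Cd3e at 10.59 to 11.04 and Cd3g at 11.87 to 12.15. The preparations also held epithelial RNA, with Epcam at 10.75 to 11.05. B cell genes differed among themselves: Ighm stood at 8.50 to 8.92, Cd22 at 6.07 to 6.44 and Cd79b at 5.71 to 5.77, while Pax5 was listed at 0 in every sample. The summed level of the 10 B cell markers was 9.02 to 9.32. The targeted genes were looked up in every sample. Prdm1, the gene of Blimp-1, had 11.53 and 11.43 in wild type and 11.37 and 11.43 in DKO (-0.08, adjusted p = 0.617 in limma). Zfp683, the gene of Hobit, was low, at 3.53 and 3.81 in wild type and 3.29 and 3.38 in DKO, so its mean was under 4 and it was not tested. In these mixed cells the values do not by themselves show the loss of either gene. In bulk RNA, fewer cells of a type and less RNA per cell cannot be told apart.

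The sequence before the start of 4 of the genes is shown because RORα, the product of a gene described here, is known to bind DNA at the letters AGGTCA. RefSeq promoter windows of GRCm38.p6, each from 250 bases before to 50 after a gene start, were searched on both strands for AGGTCA. They covered 8 of the 9 genes, in 9 windows, and all but Il17ra. The letters were present for Il17a, Il17f, Ccl20 and Ccr6, and in 16.3% of all 32851 windows. Other letters were searched too. TATAAA was present for Il17a, Il17f and Il22 (13.6% of all windows), and TTCNNNGAA, with N any base, for Ccr6 (8.3%). AGGTCA or its reverse complement TGACCT is in capitals below, and each stretch ends before the gene start and reads 5′ to 3′ on the strand of the gene. For Il17a (plus strand) and Il17f (minus strand) the stretch runs over the 150 bases before the start. The RefSeq start of Il17f lies inside the longer GENCODE gene.
Il17a, chr1:20730755-20730904: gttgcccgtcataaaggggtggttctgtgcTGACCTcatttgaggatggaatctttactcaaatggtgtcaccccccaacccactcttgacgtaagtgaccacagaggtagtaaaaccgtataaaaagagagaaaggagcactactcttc
Il17f, chr1:20784271-20784420: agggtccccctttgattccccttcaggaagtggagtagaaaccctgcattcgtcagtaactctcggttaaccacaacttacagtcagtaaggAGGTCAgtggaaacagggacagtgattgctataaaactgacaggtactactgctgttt
Ccl20, chr1:83116576-83116615 (plus strand): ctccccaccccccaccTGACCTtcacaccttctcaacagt
Ccr6, chr17:8235983-8236022 (plus strand): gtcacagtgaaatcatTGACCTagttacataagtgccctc

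The match began 120 bases before the start in Il17a, 58 in Il17f, 174 in Ccl20 and 44 in Ccr6. It lay in the reverse orientation in Il17a, Ccl20 and Ccr6 and in the sense orientation in Il17f. A match of 6 letters is a description of the sequence and not a binding site. In expression these 4 genes went different ways: the DKO mean was lower for Il17a and Ccl20 and higher for Il17f and Ccr6, and 0 of the 4 differences passed the test described next.

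None of the 9 genes passed the test between groups. In limma with Benjamini-Hochberg adjustment over the 13528 tested genes, 0 of 9 were higher and 0 of 9 lower in DKO at the threshold of 0.05. Before adjustment, 4 of 9 (Il17f, Csf2, Ccl20 and Il17ra) had an unadjusted p under 0.05, as did 26.4% of all tested genes. After adjustment 14.8% of all tested genes were called, 9.92% as higher and 4.85% as lower in DKO. The DKO mean was higher for 4 of the genes (Il17f, Il22, Csf2 and Ccr6) and lower for 5, with a median log2 difference of -0.033 beside -0.022 over all tested genes. The values of the groups did not overlap for 5 of 9 genes, or 55.6%, beside 55.3% of all tested genes. DKO was higher in 2 of these (Il17f and Csf2) and lower in 3 (Il21, Ccl20 and Il17ra), beside 25.0% and 30.3% of all tested genes. Separate animals are not named in the labels, so the p-values may rest on technical spread alone.

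**Figure D1:**
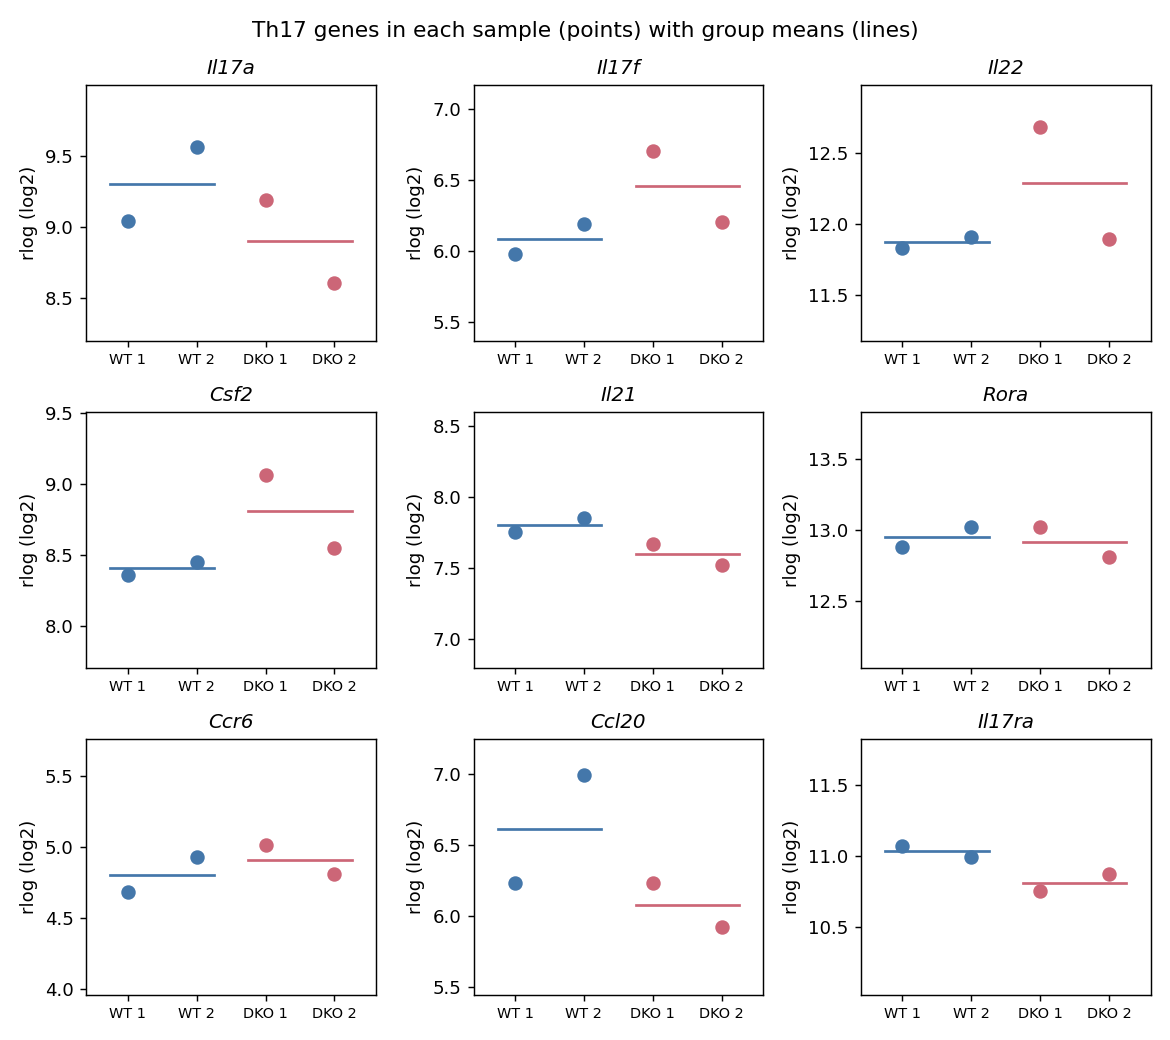
The rlog value (log2 scale, vertical axis, 1.8 units high in each panel) of each of the 9 genes in the 2 wild-type samples (WT, blue) and the 2 DKO samples (red), with lines at the group means. Il22, Csf2 and Il17f are highest in DKO replicate 1, and Il17a, Ccl20 and Il21 are highest in wild-type replicate 2 and lowest in DKO replicate 2.

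Il17a, which encodes the signature cytokine of Th17 cells (ENSMUSG00000025929, GRCm38 chromosome 1, 20730905 to 20734496), reached an rlog of 9.04 and 9.56 in wild type and of 9.19 and 8.60 in DKO. DKO replicate 1 lay between the wild-type samples, so the groups overlapped. The log2 difference, DKO minus wild type, was -0.40 (SE 0.187, 95% interval -0.82 to 0.01, adjusted p = 0.198 in limma). It depended on single samples, being -0.70 without DKO replicate 1 and -0.67 without wild-type replicate 1 (adjusted p = 0.000292 and 0.00934), but -0.11 without DKO replicate 2 and -0.14 without wild-type replicate 2. In such fits the spread of the group with 1 sample is taken from the other group.

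Il17f, which encodes the closest relative of IL-17A and lies near it on chromosome 1 (ENSMUSG00000041872, 20777146 to 20790617), stood at 5.98 and 6.19 in wild type and at 6.71 and 6.21 in DKO. Only DKO replicate 1 stood clearly above the rest, by 0.50. The difference was 0.37 (SE 0.16, 95% interval 0.02 to 0.73, adjusted p = 0.16 in limma). It was 0.63 without DKO replicate 2 and 0.12 without DKO replicate 1. The coding sequences of Il17a (474 bases without the stop codon) and Il17f (483 bases) were identical in 59.4% of alignment columns, gaps included. There were 297 identical bases, 160 mismatches and 43 columns with a gap, and no identical run was longer than 11 bases.

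Il22, which encodes a cytokine that acts on epithelial cells (ENSMUSG00000074695, chromosome 10, 118204942 to 118210047), had 11.83 and 11.91 in wild type and 12.68 and 11.89 in DKO. DKO replicate 1 was 0.76 above the next sample, and DKO replicate 2 lay between the wild-type samples. The difference was 0.41 (SE 0.188, 95% interval -0.004 to 0.82, adjusted p = 0.193 in limma). It was 0.02 without DKO replicate 1 and 0.80 without DKO replicate 2.

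Csf2, which encodes GM-CSF, a growth factor of myeloid cells that Th17 cells release in inflamed tissue (ENSMUSG00000018916, chromosome 11, 54247271 to 54249667), was at 8.36 and 8.45 in wild type and at 9.06 and 8.55 in DKO. Both DKO samples were above both wild-type samples, replicate 2 by a narrow margin. The difference was 0.40 (SE 0.141, 95% interval 0.09 to 0.71, adjusted p = 0.0901 in limma). It was 0.65 without DKO replicate 2 and 0.14 without DKO replicate 1. The antisense gene Gm12223 shares 96 exonic bases with Csf2 and was listed at 0 in each sample.

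Il21, which encodes a cytokine of Th17 and follicular helper T cells (ENSMUSG00000027718, chromosome 3, 37222759 to 37232636), was at 7.75 and 7.85 in wild type and at 7.67 and 7.52 in DKO. The DKO samples were slightly lower without overlap. The difference was -0.20 (SE 0.105, 95% interval -0.43 to 0.03, adjusted p = 0.257 in limma). Leaving out each sample in turn gave differences of -0.28 to -0.13, and the gene passed in none of these fits (adjusted p from 0.161 to 0.727). An antisense gene, Gm12534, shares 469 exonic bases with it and was low, at 2.05 to 2.20.

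Rora, which encodes the nuclear receptor RORα (ENSMUSG00000032238, chromosome 9, 68653786 to 69388246), was the gene of the 9 with the smallest group difference. Its values were 12.88 and 13.02 in wild type and 13.02 and 12.81 in DKO, with overlapping groups. The difference was -0.03 (SE 0.103, 95% interval -0.26 to 0.19, adjusted p = 0.887 in limma), and its sign changed with quantile normalization (0.09). Rora is also expressed by innate lymphoid cells and other cells.

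Ccr6, the receptor by which Th17 cells, some innate lymphoid cells and B cells follow CCL20 (ENSMUSG00000040899, chromosome 17, 8236043 to 8257141), was the lowest of the 9 genes. It stood at 4.68 and 4.93 in wild type and at 5.01 and 4.81 in DKO, so the groups overlapped. The difference was 0.10 (SE 0.129, 95% interval -0.18 to 0.39, adjusted p = 0.678 in limma), and -0.02 with quantile normalization. At this level rlog shrinks differences strongly.

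Ccl20, the only known chemokine ligand of CCR6 (ENSMUSG00000026166, chromosome 1, 83116766 to 83119167), had the largest difference of the 9 genes in size. It stood at 6.23 and 6.99 in wild type and at 6.23 and 5.92 in DKO. Wild-type replicate 2 was 0.76 above the next sample, and wild-type replicate 1 and DKO replicate 1 were the same to 2 decimals, so the groups were apart by less than that. The difference was -0.54 (SE 0.206, 95% interval -0.99 to -0.08, adjusted p = 0.116 in limma). It was -0.16 without wild-type replicate 2, -0.92 without wild-type replicate 1 and -0.69 without DKO replicate 1. Ccl20 is made by epithelial and myeloid cells as well as T cells. Of 11 epithelial marker genes 1 rose (Car1, 0.46, adjusted p = 0.00463, and 0.0712 without wild-type replicate 2) and 0 fell, and their summed level was 14.57 and 14.72 in wild type and 14.69 and 14.57 in DKO on the log2 scale. Of the myeloid markers, 13 of 13 neutrophil and 12 of 14 monocyte and macrophage genes fell in DKO, beside 4.85% of all tested genes. The summed level was 15.87 and 15.95 in wild type and 14.76 and 14.29 in DKO for the neutrophil list, and 16.49 and 16.46 against 15.80 and 16.00 for the other. The part of these cells in the Ccl20 values was not tested.

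Il17ra, the receptor chain shared by IL-17A and IL-17F and expressed widely (ENSMUSG00000002897, chromosome 6, 120463247 to 120487559), was at 11.07 and 10.99 in wild type and at 10.75 and 10.87 in DKO. The DKO samples were lower without overlap, by a small amount. The difference was -0.22 (SE 0.0816, 95% interval -0.40 to -0.04, adjusted p = 0.101 in limma), and -0.28 without DKO replicate 2. The partner chain gene Il17rc had 8.20 and 8.30 in wild type and 8.35 and 8.10 in DKO (-0.02, adjusted p = 0.936). Myeloid cells carry Il17ra, and the part of the fall of the neutrophil, monocyte and macrophage markers in its values was not tested.

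**Figure D2:**
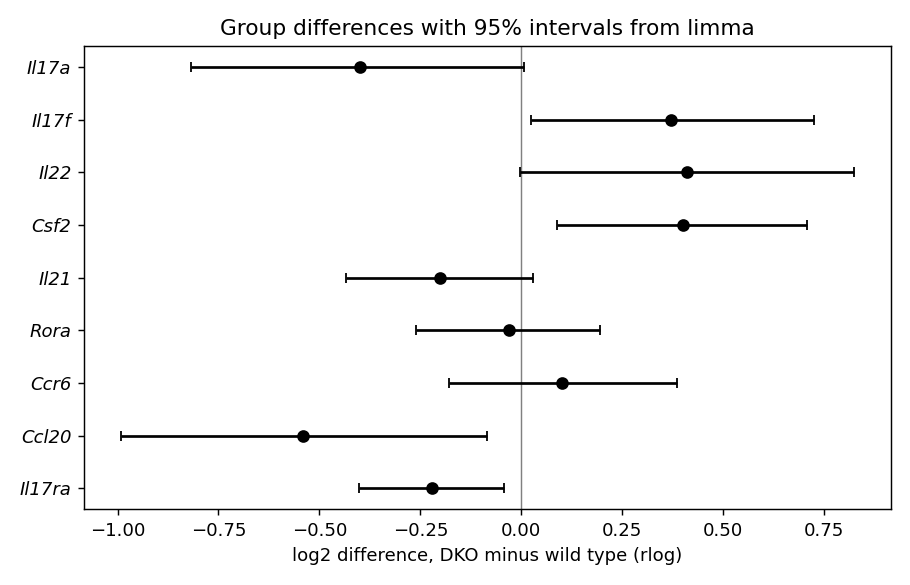
The log2 difference in rlog between the DKO and wild-type means (points) of the 9 genes, with 95% intervals from the moderated limma fit (bars). The intervals of Il17f, Csf2, Ccl20 and Il17ra exclude 0 before adjustment, and 0 of the 9 genes passed after it.

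Across genes, levels were compared per length, as rlog minus the log2 of the exon length in kilobases. Il22 stood highest by this measure, with a mean of 11.93 over the 4 samples. Rora (9.23), Csf2 (8.92) and Il17a (8.87) followed with overlapping ranges, and then Il17ra (7.81), which overlapped none of its neighbours. Ccl20 (5.83), Il21 (5.30) and Il17f (5.26) overlapped one another, and Ccr6 (3.64) was lowest. The Il17f length of 2.02 kilobases covers all annotated exons, and with a shorter transcript in use its level per length would be higher.

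Within samples, Il17a was lower relative to Il17f, Il22 and Csf2 in the DKO group. The rlog of Il17a minus that of Il17f was 3.06 and 3.37 in wild type and 2.48 and 2.39 in DKO. Against Il22 the values were -2.79 and -2.35 in wild type and -3.49 and -3.29 in DKO. Against Csf2 they were 0.68 and 1.11 in wild type and 0.13 and 0.06 in DKO. In each of these 3 pairs both DKO samples were below both wild-type samples, and the mean fell by 0.78, 0.81 and 0.80 on the log2 scale. The exact permutation test over the 4 samples gave p = 0.333 (two-sided) for each, the smallest that 2 against 2 samples allow. The pairs share Il17a and were chosen after the values were seen, and shrinkage differs between genes of different depth.

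**Figure D3:**
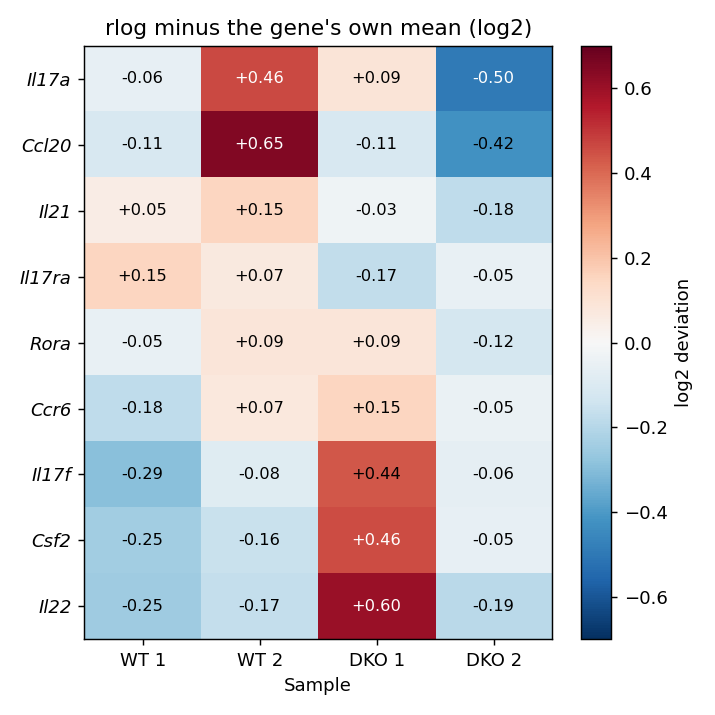
The rlog of each gene (rows) minus its own mean over the 4 samples, in log2 units, for each sample (columns), with red above and blue below the mean. Il17f, Csf2 and Il22 stand 0.44 to 0.60 above their means in DKO replicate 1, while Il17a and Ccl20 are highest in wild-type replicate 2 (0.46 and 0.65) and lowest in DKO replicate 2 (-0.50 and -0.42).

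The samples of a group also differed from each other in these genes. The DKO samples were 0.79 apart in Il22, a gap reached by 0.2% of all tested genes, 0.59 apart in Il17a (0.806% of genes), 0.51 in Csf2 (1.47%) and 0.50 in Il17f (1.54%), each time with replicate 1 higher. The wild-type samples were 0.76 apart in Ccl20 (0.281%) and 0.52 in Il17a (0.784%), with replicate 2 higher, but only 0.08 apart in Il22 and 0.09 in Csf2. The standard error of the group difference had a median of 0.141 over the 9 genes, beside 0.102 over all tested genes.

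The genes with the profile nearest to Il17a over the 4 samples, by Euclidean distance of values centred on each gene's mean, were Rnf128 (distance 0.0925), Zfp991 (0.14) and Mmp7 (0.20), among 12745 tested genes with an established symbol. Rnf128, a ubiquitin ligase known for its role in T cell anergy, had 8.43 and 8.87 in wild type and 8.60 and 8.02 in DKO. Mmp7, the matrilysin of epithelial cells, had 4.79 and 5.21 in wild type and 4.92 and 4.53 in DKO. Of the genes described here Ccl20 was the nearest (0.292, with 22 genes nearer) and Il22 the farthest (0.884), while the median distance was 0.711. The distance rests on only 4 values a gene.

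Il22 has a near-identical copy in the mouse genome GRCm38, Iltifb (ENSMUSG00000090461, chromosome 10, 118289629 to 118295038, minus strand), and reads can be hard to assign between them. The strain is not given, so whether these mice carry Iltifb is not known. The coding sequences of Il22 and Iltifb, 537 bases each without the stop codon, differed at 9 positions, and the longest identical run was 215 bases. The stretch from coding base 98 to 217 is printed from the GENCODE transcripts of GRCm38 to show how close they are, with the 5 differing bases in capitals.
Il22: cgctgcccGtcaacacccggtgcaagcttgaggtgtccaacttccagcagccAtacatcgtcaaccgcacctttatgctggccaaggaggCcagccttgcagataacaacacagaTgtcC
Iltifb: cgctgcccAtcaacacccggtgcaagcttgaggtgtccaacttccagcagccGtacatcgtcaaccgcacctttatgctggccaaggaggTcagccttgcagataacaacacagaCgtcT

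Iltifb, looked at after its values were seen, did not follow Il22. It had 6.98 and 6.90 in wild type and 6.54 and 6.31 in DKO, with both DKO samples lower. It fell by 0.51 (SE 0.118, adjusted p = 0.0129 in limma), though not past the threshold when wild-type replicate 1 was left out (-0.47, adjusted p = 0.0705). The rlog of Il22 minus that of Iltifb was 4.86 and 5.01 in wild type and 6.14 and 5.58 in DKO (exact permutation p = 0.333, the smallest possible). Iltifb made up 1.4% to 3.33% of the sum of both genes on the linear scale, so their sum followed Il22, at 11.88 and 11.96 in wild type and 12.70 and 11.92 in DKO on the log2 scale. The sources used here do not say how reads that match both genes were counted.

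**Figure D4:**
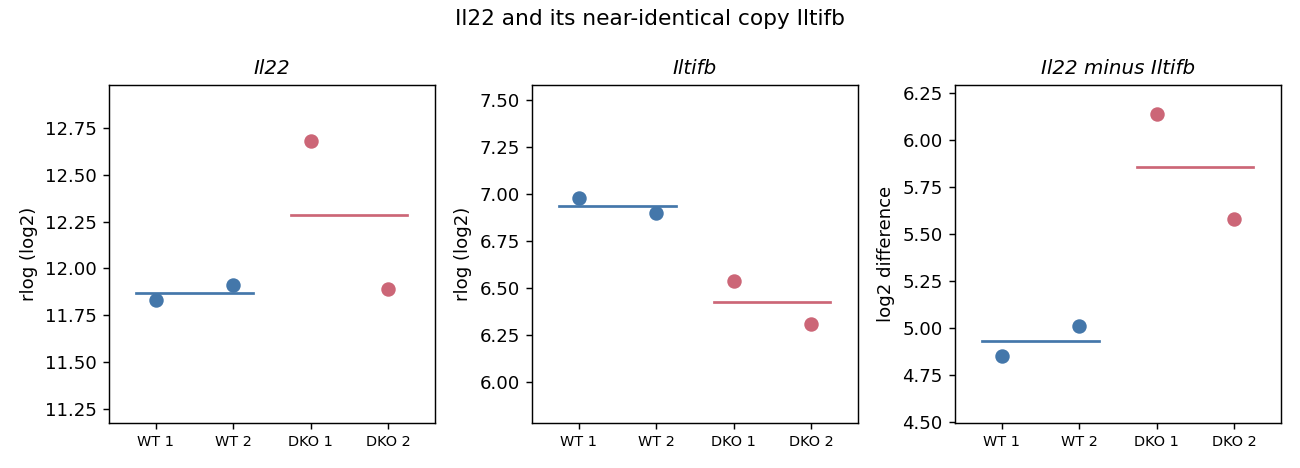
The rlog (log2) of Il22 and of Iltifb and the difference between them, in the 2 wild-type samples (WT, blue) and the 2 DKO samples (red), with lines at the group means. Il22 is raised in DKO replicate 1 alone, Iltifb is lower in both DKO samples, and their difference is 4.86 and 5.01 in wild type and 6.14 and 5.58 in DKO.

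Of 14 transcriptional regulators of Th17 cells 0 rose and 2 fell, with a median of -0.15. The share called was 14.3%, beside 14.8% of all tested genes. Batf, an AP-1 factor needed for Th17 differentiation, was at 10.80 and 10.93 in wild type and 10.50 and 10.62 in DKO (-0.30, adjusted p = 0.0357 in limma). Gfi1, a repressor, was at 8.90 and 8.86 in wild type and 8.46 and 8.66 in DKO (-0.32, adjusted p = 0.0497). Neither passed without wild-type replicate 1 (adjusted p = 0.0553 and 0.21), wild-type replicate 2 (0.335 and 0.144) or DKO replicate 1 (0.0831 and 0.211), where Gfi1 was at -0.21. Both calls were also lost with no variance trend (adjusted p = 0.0796 and 0.0737) and with quantile normalization (0.0911 and 0.0596). Of the 34 called genes named here and below, or as Iltifb and Car1 above, only Il6st and Lcn2 also passed when genes with low values were not filtered out.

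Il23r, the IL-23 receptor chain of Th17 cells and innate lymphoid cells, had 7.22 and 7.46 in wild type and 7.69 and 7.41 in DKO, with overlapping groups (0.21, adjusted p = 0.335 in limma).

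Of 16 inducing cytokines, receptors and kinases 2 rose and 2 fell (25.0% called, beside 14.8% of all tested genes), with a median of 0.0. Il6st, the shared signalling chain of the IL-6 family, rose from 9.96 and 9.80 to 10.78 and 10.80 (0.91, adjusted p = 4.3e-05 in limma). It is broadly expressed in stroma and endothelium. Beside 9.92% of all tested genes, 12 of 12 fibroblast and smooth muscle and 10 of 10 endothelial marker genes rose as well. The summed levels were 15.06 and 14.89 in wild type against 16.05 and 15.90 in DKO for the former, and 11.67 and 11.50 against 12.54 and 12.65 for the latter. Their part in Il6st was not tested. Il12b, the subunit shared by IL-12 and IL-23, rose by 0.68 (0.45 without wild-type replicate 1), whereas Il23a, the other IL-23 subunit, was at -0.45 (adjusted p = 0.0978). Il1a fell by 0.57 and Il1b by 0.53, Il1b not passing when wild-type replicate 1 or 2 was left out (adjusted p = 0.228 and 0.24) or with quantile normalization (0.108).

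Among 13 genes reported higher in pathogenic Th17 cells, 12 were tested. The list leaves out the 9 genes described here, such as Csf2 (0.40) and Il22 (0.41). Of those 9, 4 had a higher and 5 a lower DKO mean, and 0 passed. Beside 14.8% called among all tested genes, 0 of the 12 rose and 2 fell, with a median of -0.14. These were the chemokines Cxcl3 (-0.66, adjusted p = 0.000812 in limma) and Ccl3 (-0.46, adjusted p = 0.00564, and 0.0542 without wild-type replicate 2), which myeloid cells also make. Among 7 genes reported higher in non-pathogenic Th17 cells, 6 were tested. Of these 1 rose and 1 fell, beside 9.92% and 4.85% of all tested genes. Il6st rose and Il10 fell, the latter from 10.85 and 11.26 to 10.52 and 10.75 (-0.42, adjusted p = 0.0491). Il10 lost its call without wild-type replicate 2 (-0.21, adjusted p = 0.453) or DKO replicate 1 (-0.30, adjusted p = 0.0734). It also lost it with all samples and no variance trend (adjusted p = 0.0938), a robust variance estimate (0.0999) or quantile normalization (0.115).

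IL-17 receptor chains and signalling genes, 14 in number, held 0 calls in limma in either direction, and 2 of them had an unadjusted p under 0.05. Of all tested genes 14.8% were called and 26.4% had an unadjusted p under 0.05. The 14 genes had a median of -0.06 and a range of -0.23 to 0.39. Traf3ip2, which encodes the adaptor Act1, was at 8.75 and 8.68 in wild type and 8.83 and 8.87 in DKO. The highest difference was that of Il17rb, a chain of the IL-25 receptor, with 8.32 in DKO replicate 1 and 7.26 to 7.54 elsewhere. Genes of 4 other IL-17 family ligands (Il17b, Il17c, Il17d and Il25) had means under 4 and were not tested.

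Genes known to respond to IL-17 split in direction. Of 20 such genes 5 rose and 9 fell in limma (70.0% called, beside 14.8% of all tested genes). Their median was -0.30 and the range -1.43 to 0.75. The list, like the others, was chosen with earlier results of these data known. With no filter on low values, only Lcn2 of the called genes kept its call. The falls were S100a8 (-1.43), S100a9 (-1.34), Lcn2 (-1.25), Saa3 (-1.03), Mmp9 (-1.0), Cebpb (-0.75), Nos2 (-0.74), Cxcl2 (-0.63) and Ptgs2 (-0.62). Of these, 3 (S100a8, S100a9 and Lcn2) are also in the neutrophil list, all of whose 13 genes fell. The rises were Mmp3, the stromelysin of fibroblasts (0.75), the chemokines Ccl2 (0.63) and Ccl7 (0.60), Cebpd (0.58) and Steap4 (0.30).

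Mmp3 was at 8.36 and 8.39 in wild type and 8.97 and 9.26 in DKO, beside the rise of all 12 fibroblast and smooth muscle genes. The part of these cell types in the split was not tested. Leaving out wild-type replicate 2 ended the calls of Cxcl2 and Ptgs2 (adjusted p = 0.0646 and 0.0831), and leaving out wild-type replicate 1 that of Ccl7 (0.0976). Steap4 lost its call without either of them (0.0757 without replicate 1 and 0.258 without replicate 2), and with no variance trend (0.0588). A robust variance estimate ended the calls of Cebpb (0.135), Nos2 (0.156) and Ccl7 (0.181). Without DKO replicate 1 Cebpb was at -0.44 and Nos2 at -0.43, and without DKO replicate 2 Ccl7 was at 0.37. The count of rises was 3 without wild-type replicate 1.

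**Figure D5:**
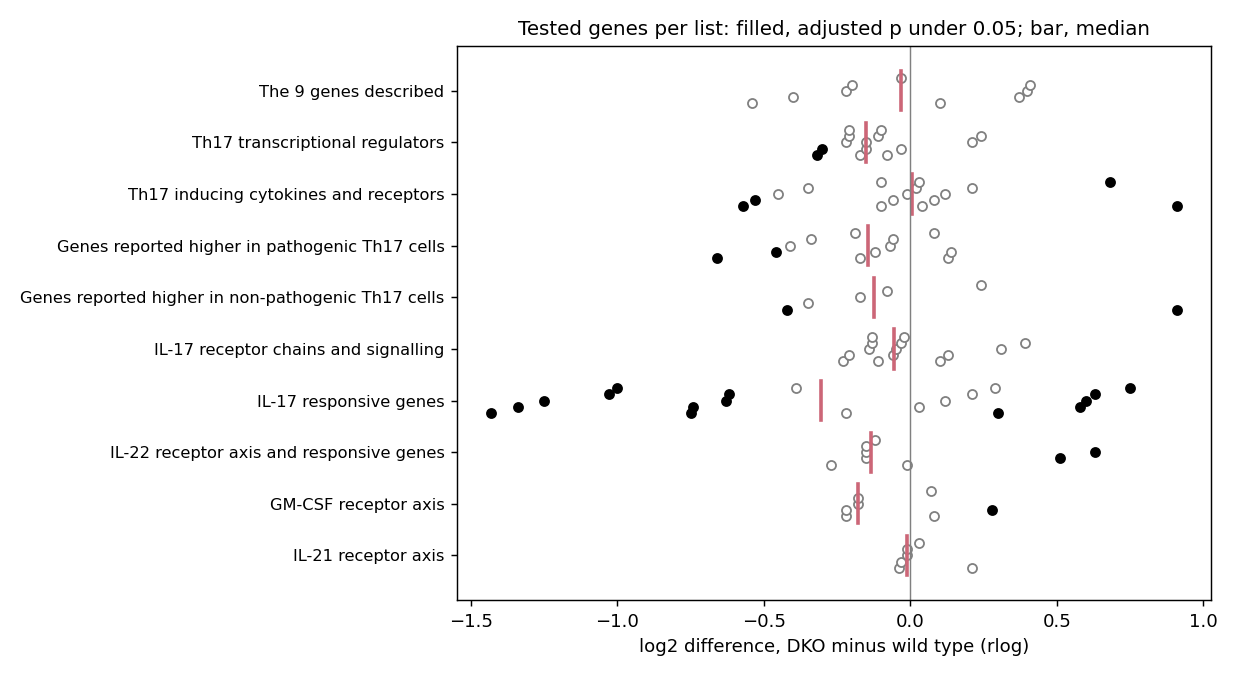
The log2 difference in rlog, DKO minus wild type (horizontal axis), of each tested gene (points) in the 9 genes described and in lists of related genes (rows). Points are filled where the adjusted p in limma was under 0.05, and bars mark the medians. The 9 genes described hold 0 filled points, and the IL-17 responsive genes hold 5 to the right and 9 to the left.

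Over the receptor axes of IL-22, GM-CSF and IL-21, 3 of 21 tested genes were called in limma (14.3%), a share near that of all tested genes. Of 10 genes of the IL-22 axis 8 were tested, 2 rose and 0 fell, with a median of -0.13. Il22ra2, which encodes a soluble decoy receptor for IL-22, was at 6.18 and 5.98 in wild type and 6.70 and 6.48 in DKO (0.51, adjusted p = 0.0186 in limma, and 0.155 and 0.0612 without wild-type replicate 2 and DKO replicate 1, and 0.0654 with quantile normalization). Saa1, an acute phase gene, rose by 0.63 (adjusted p = 0.0158, and 0.0759 and 0.0503 without wild-type replicate 1 and DKO replicate 1, where it was at 0.49 and 0.42). The epithelial antimicrobial lectins Reg3b (-0.12, adjusted p = 0.598) and Reg3g (-0.27, adjusted p = 0.0854) did not pass. The signalling receptor chain Il22ra1 was low, at 3.13 to 3.23, and was not tested.

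Of 7 genes of the GM-CSF axis 1 rose and 0 fell. It was Stat5a (0.28, adjusted p = 0.0319 in limma), a call lost when either wild-type sample was left out (adjusted p = 0.227 and 0.126) or with no variance trend (0.0749). The receptor genes Csf2ra (-0.22) and Csf2rb (-0.18) did not pass. Of 6 genes of the IL-21 axis 0 were called in limma (1 at an unadjusted p under 0.05), and Il21r was at -0.04.

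Markers of several cell types were set beside the cytokine genes. Of all tested genes 9.92% were called as higher and 4.85% as lower. Of 15 T cell genes 0 rose and 1 fell (Trat1, -0.28, adjusted p = 0.04 in limma, 0.0727 and 0.375 without wild-type replicate 1 and 2, 0.0854 with no variance trend and 0.0952 with quantile normalization), with a median of -0.15. Their summed level was 15.76 and 15.85 in wild type and 15.57 and 15.72 in DKO on the log2 scale. Of 10 genes of group 3 innate lymphoid cells only Kit rose (0.71), a gene that mast cells also express, with summed levels of 13.79 and 13.90 against 13.84 and 13.78. Of 7 mast cell genes 6 were tested, 4 rose and 0 fell, with summed levels of 11.20 and 10.98 against 12.20 and 11.98. Of 8 natural killer cell genes 3 rose and 0 fell, with 12.92 and 12.96 against 13.21 and 13.40. A sum mostly follows the highest genes of its list and need not follow the others. In the natural killer list the highest gene had a mean of 12.66 and the next 9.82. The highest of the innate lymphoid list were Il7r (mean 12.10) and Ltb (11.80). The part of these cell types in the cytokine values was not tested.

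Of 9 genes of gamma delta T cells 8 were tested, 3 rose and 1 fell, beside 9.92% and 4.85% of all tested genes. The summed level of the list was 10.57 and 10.74 in wild type and 10.89 and 11.11 in DKO. The scavenger receptor Cd163l1 rose from 8.28 and 8.03 to 8.71 and 9.49 (0.94, adjusted p = 0.0071 in limma, and 0.55 without DKO replicate 2), and the call ended when the variance was estimated robustly (adjusted p = 0.282). The constant segment Tcrg-C4 rose from 7.51 and 7.85 to 8.51 and 8.32 (0.74, adjusted p = 0.00193), and the transcription factor Sox13 from 6.34 and 6.14 to 6.81 and 6.88 (0.61, adjusted p = 0.00414). Tcrg-C1 fell (-0.34, adjusted p = 0.0473), a call lost without wild-type replicate 2 (-0.23, adjusted p = 0.45) or DKO replicate 1 (0.0584) and with no variance trend (0.0606). Trdc, the delta chain constant segment, was at 6.26 and 6.19 in wild type, at 6.24 in DKO replicate 1 and higher in DKO replicate 2. The part of gamma delta T cells in the cytokine values was not tested.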

How the data were processed

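Gene expression of lamina propria mononuclear cells was measured from stranded mRNA libraries of 4 mouse samples, per the labels' protocols, and groups were taken from the labelled treatment. Replicates were numbered in order of entry, and the numbers pair no samples. The authors deposited log2 values, named rlog (regularized log2, a DESeq2 transformation) in the title of their table. The submitters' processing notes name STAR 2.5.4a, BWA 0.7.14-r1136, featureCounts, Subread 1.5.2, cutadapt 1.9.1, bcl2fastq 2.17.1.14, DESeq2 and GRCm38. The sources used here do not give roles, parameters or the handling of strand and of reads with several matches. The table has 2 further columns that match no labelled sample and were not used. Counts and depth were not analysed here, so no count test was made.

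Of 48526 identifiers 48058 were matched to a symbol and a GENCODE position on GRCm38. The 13528 genes whose rlog averaged 4 or more were fitted in limma 3.58.1 (R 4.3.3) with group as the only term and a mean-variance trend. The two-sided p-values were adjusted by Benjamini-Hochberg over all tested genes, with a threshold of 0.05. The code was tested on simulated data. Summed levels of a list are the log2 of the sum of its genes on the linear scale. Sequences were aligned with Biopython 1.88, and promoters are from RefSeq (GRCm38.p6). Tables and figures were made with Python 3.11.15, pandas 2.3.3 and matplotlib 3.10.9. The differences of the 9 genes, of Il23r, Il17rc and the called genes named, the differences between 2 genes within a sample, and the counts were recomputed under 11 alternatives (Ccr6 under 10): no filter, a mean rlog of at least 6, no variance trend, a robust variance estimate, median centring, quantile normalization, sample weights and leaving out each sample. The distances to Il17a and the other genes named were not recomputed.

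The genes described and the lists (10 of pathways, 14 of cell type markers) were chosen with earlier results of these data known. Named are the 9 genes, called genes of the pathway lists (up to 3 with the smallest p, or all where at most 6 passed one way), Il23r and Il17rc, up to 3 genes of a marker list, those at 0, and the 3 genes most like Il17a. A few genes under this rule are left out here. The other genes named, such as Iltifb, all calls among IL-17 responsive genes, Reg3b and Il17rb, were chosen after their values were seen.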

Additional observations from a re-analysis of the deposited data

How the results depend on the processing

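With all 4 samples, 0 of the 9 genes passed in either direction under any of the alternatives. Signs changed for Rora, at 0.09 with quantile normalization, and for Ccr6, at -0.02 there. With single samples left out, differences ran from -0.70 to -0.11 for Il17a, 0.12 to 0.63 for Il17f, 0.02 to 0.80 for Il22, 0.14 to 0.65 for Csf2, -0.92 to -0.16 for Ccl20, -0.28 to -0.17 for Il17ra, -0.14 to 0.07 for Rora (0.03 without wild-type replicate 2, 0.07 without DKO replicate 2), -0.02 to 0.23 for Ccr6 (-0.02 without wild-type replicate 1) and -0.28 to -0.13 for Il21. Between 0 and 3 of the 9 genes then passed as higher and 0 to 2 as lower. Il17rc was at 0.03 without wild-type replicate 2 and at 0.10 without DKO replicate 2, against -0.15 without DKO replicate 1. Of 98 recomputed values of the 9 genes, 85 kept their direction and side of the threshold, and 326 of 407 of the other named genes. No filter, a mean rlog of at least 6, no variance trend and a robust variance estimate leave the difference unchanged, as did sample weights. In these settings only the side of the threshold could change. Of the 34 called genes named, 32 lost their call with no filter, 7 with no variance trend, 5 with a robust variance estimate and 6 with quantile normalization. With median centring, sample weights or a mean rlog of at least 6, 0 did. The differences of Il17a against Il17f, Il22 and Csf2 lay between -1.04 and -0.58, and that of Il22 against Iltifb between 0.64 and 1.20. Over all genes, 1342 were higher and 656 lower in DKO. With no filter these were 181 and 25, and with a mean rlog of at least 6, 878 were higher. Left-out samples gave 1008 to 1660 higher and 324 to 1222 lower. Of the other pathway genes 10 rose and 16 fell, 1 and 1 with no filter, and 6 to 12 and 9 to 24 with a sample left out. Of the IL-17 responsive genes 0 rose and 1 fell with no filter, and with a sample left out 3 to 5 rose and 7 to 11 fell. In the main fit 93 different other pathway genes were tested. Of their calls there, 5 rises and 9 falls were IL-17 responsive genes. That list had 70.0% of its 20 genes called, beside 14.8% of all tested genes, and was chosen with earlier results known. With no filter 25186 genes were tested, and the cause of the loss of calls was not tested. No paired analysis was possible because the labels carry no replicate numbers. With 2 samples a group and unknown depth, small differences in low genes such as Ccr6 could not be detected.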
